A study of Mus musculus with 11 samples.

Results

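Mouse embryonic stem cells without DGCR8 were compared with cells that carried wild-type DGCR8, by small RNA sequencing read out as one count per mature miRNA. The knockout group (KO) consisted of 3 libraries with the genotype DGCR8 -/-, not transfected, all titled with clone 261. The induced wild-type group consisted of 3 libraries, 1 each from clones 10, 12 and 16, labelled DGCR8 wt/wt and transfected with the doxycycline-inducible vector pSB ET iE-FlagDGCR8-wt together with the transposase plasmid pCMV(CAT)-SB100X. Both groups came from the strain labelled NBA1-19349, grew without feeder cells in 2i medium with LIF, and received doxycycline at 300 ng/mL for 48 h. These 6 libraries were selected from 11 by their labels, and every miRNA that passed a filter on low counts was used, which left 730 of the 1966 miRNAs listed. The design text speaks of 3 independent clones per condition, while the 3 KO titles share 1 clone number, so the spread among KO libraries may be that of repeat samples of 1 clone. Transfection and genotype changed together between the groups, so loss of DGCR8 and absence of the vector cannot be told apart here. The other 5 libraries enter the fit for the spread and the filter on low counts: 3 induced ones labelled DGCR8 E518K/E518K, a point mutant carried on the vector pSB ET iE-FlagDGCR8-E518K with the same transposase plasmid (clones 8, 13 and 15), and 1 library without doxycycline each of E518K clone 8 and wild-type clone 10.

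DGCR8 binds RNA and works with the nuclease Drosha. Together they form the Microprocessor, which cuts the hairpin of a canonical miRNA out of its primary transcript before Dicer cuts the hairpin into the mature miRNA. Some hairpins are made without this step: mirtrons are whole or partial introns freed by the spliceosome, a few hairpins start at a transcription start site and carry a cap, and others are cut from snoRNAs, scaRNAs or tRNAs. In mouse embryonic stem cells the miR-290-295 cluster is the best known canonical group, and its members with the AAGUGCU seed act on cell cycle inhibitors.

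The sequences that set the 2 groups apart come from RefSeq (GRCm38.p6), which held a mature sequence for 1675 of the 1966 miRNAs (85.2%). In each mature sequence the seed, bases 2 to 8, is in capitals. First come abundant miRNAs of the wild-type libraries, ordered so that members with the same seed stand together. The pair miR-292a-5p and miR-293-5p shares CUCAAAC, the pair miR-295-3p and miR-291a-3p shares AAGUGCU, and the pair miR-20a-5p and miR-20b-5p shares AAAGUGC.
miR-292a-5p: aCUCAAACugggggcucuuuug
miR-293-5p: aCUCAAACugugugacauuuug
miR-295-3p: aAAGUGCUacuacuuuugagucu
miR-291a-3p: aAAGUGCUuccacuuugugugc
miR-20a-5p: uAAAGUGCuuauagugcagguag
miR-20b-5p: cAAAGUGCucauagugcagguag
miR-7a-5p: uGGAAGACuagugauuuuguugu
miR-182-5p: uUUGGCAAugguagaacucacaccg

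The next set holds abundant miRNAs of the KO libraries, and their seeds differ from one another and from those above. The mature sequences of miR-320-3p, miR-5099 and miR-6539 are not shown.
miR-1981-5p: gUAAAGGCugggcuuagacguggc
miR-877-3p: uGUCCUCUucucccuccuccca
miR-484: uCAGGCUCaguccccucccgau
miR-1839-5p: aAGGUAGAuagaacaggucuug
miR-1983: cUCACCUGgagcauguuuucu
miR-3535: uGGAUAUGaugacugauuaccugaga

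The whole hairpins of miR-1981 and miR-877 are shown because each equals an annotated intron base for base. Mir1981, the hairpin of miR-1981-5p, lies at chr1:184822407-184822488 on the minus strand and fills an intron of Marc2. Mir877, the hairpin of miR-877-3p, lies at chr17:35960730-35960814 on the minus strand and fills an intron of Abcf1. The capitals mark the GU and AG ends, which are the bases an intron starts and ends with.
Mir1981: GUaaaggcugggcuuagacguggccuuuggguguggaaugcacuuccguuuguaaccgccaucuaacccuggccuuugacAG
Mir877: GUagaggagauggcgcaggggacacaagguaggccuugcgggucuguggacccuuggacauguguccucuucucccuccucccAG

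The libraries differed in depth. Totals over all miRNAs were 208846, 166676 and 169316 counts in KO and 3394216, 6128734 and 5933843 in the induced wild type, a ratio of means of 28.4 (two-sided exact permutation test, p = 0.1, the smallest that 3 against 3 libraries allow). Summed over libraries, KO held 3.52% of the counts of the wild type. The share of all sequenced small RNA that these counts make up is not known, so lower totals and shallower sequencing cannot be told apart. Even values made up 90.3% of the counts from 1 to 40, so a floor of 6 counts, or 3 small RNAs counted 2 times, is used below as the limit that a count of 0 allows for counting error. On the TMM-scaled CPM values used below, which relate each count to the library's scaled total, this floor was 16.4 CPM on average in KO and 1.96 in the wild type. At least 6 counts were reached by 267 ± 4.58 miRNAs in KO and 658 ± 73.7 in the wild type (SD, n = 3). After every library was thinned to 166676 counts the numbers were 252 ± 17.9 and 284 ± 24.2, also without overlap (exact permutation p = 0.1). The deposited table does not hold the transcript of Dgcr8, but miR-1306 lies in a coding exon of Dgcr8 at chr16:18284239-18284317. miR-1306-3p had 1, 0 and 0 counts in KO and 32, 55 and 118 in the wild type. For miR-1306-5p the counts were 0, 0 and 0 against 25, 61 and 71. Both arms were thus near 0 in the libraries labelled as knockout, though after thinning the fitted log2 change of miR-1306-3p was 0.02, so at KO depth the arm gives no check.

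edgeR's quasi-likelihood test, fitted on all 11 libraries and adjusted by the Benjamini-Hochberg method, called 645 miRNAs changed (88.4% of those tested) at an adjusted p under 0.05. Higher in KO were 30.0%, lower were 426 (58.4%), and 85 did not pass. These shares over all tested miRNAs are the background for the calls in each list below. The scaled values of the groups did not overlap for 620 miRNAs (84.9%). Across the 730 miRNAs the middle value of the log2 change was -3.54, so a change near this value is that of a typical miRNA here. Since the pool itself changed, the split depends on the scaling: when libraries were scaled to the list of Microprocessor-independent miRNAs, 12 miRNAs were higher and 560 lower, with a median log2 change of -9.30. Higher calls include many miRNAs that entered the test only through other groups than the wild type. Of the 478 that reached the filter level in a wild-type library, 44 were higher and 405 lower. This is the nearer background for the canonical clusters below, most of whose members reached that level. With every library thinned, 230 of 729 miRNAs were called lower. A direction that does not rest on scaling is given by the deposited counts: for 115 miRNAs (15.8%) every KO library held more counts than every wild-type library, although its total was far smaller. Of the tested miRNAs, 228 had 0 counts in all KO libraries and 37 had 0 in all wild-type libraries. Fitted changes of such miRNAs depend on the prior count, so bounds against the floor are used where they exist. Of the 228 at 0 in KO, 136 had a wild-type mean above the KO floor and so have a bound. In list medians with members at their bound, those without one enter as unchanged. Every bound, written as at least so many fold, was taken on TMM-scaled values and holds for that scaling only. Under another scaling it can be smaller or larger.

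**Figure D1:**
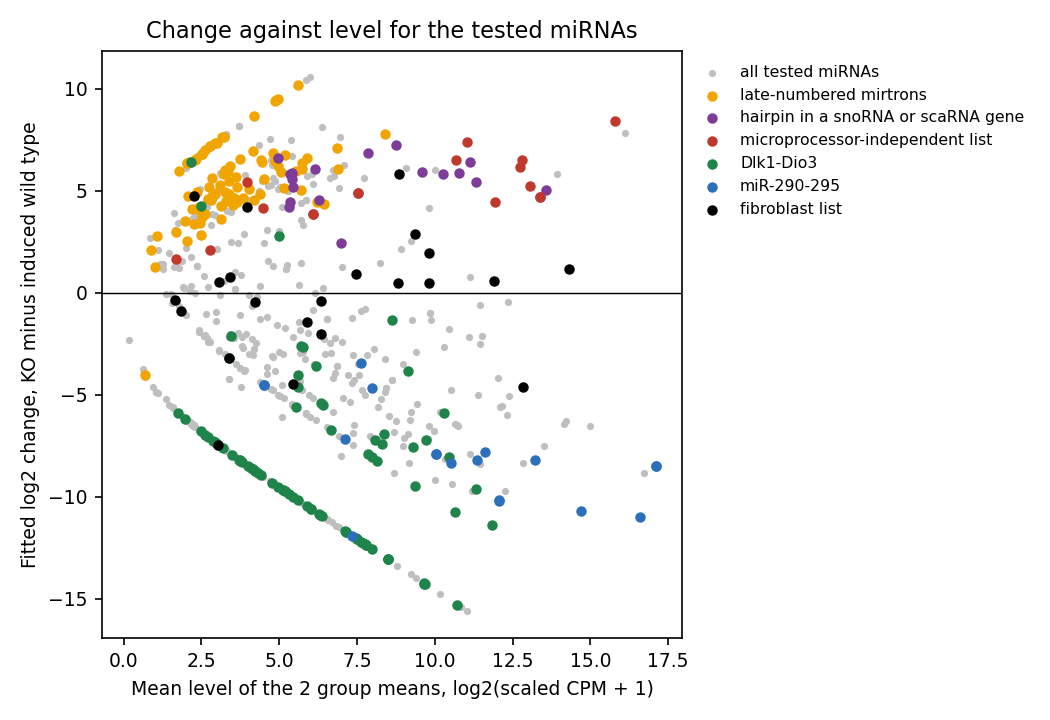
Fitted log2 change (KO minus induced wild type, vertical axis) against mean level (log2 of the scaled CPM + 1, horizontal axis) for the 730 tested miRNAs, with 6 lists coloured. The lines of points that run at an angle along the lower and upper edges are miRNAs with 0 counts in one group, whose fitted change depends on the prior count, and the miR-290-295 members all lie below 0.

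The make-up of the miRNA pool differed almost completely between the groups. The 10 most abundant miRNAs of KO made up 84.2% of all KO counts and 1.13% of the wild-type counts. The 10 most abundant of the wild type made up 76.9% of its counts and 0.776% of those in KO, and 0 miRNAs stood in both top groups. In KO, miR-5099 held 29.0% ± 3.08 of the counts (SD, n = 3), mirtrons 28.5% ± 4.88, hairpins within snoRNA or scaRNA genes 13.1% ± 1.45, the group of miR-320, miR-484 and miR-1983 7.62% ± 1.64, and miR-6539 6.34% ± 0.430. The same 5 classes held 0.0424%, 0.0409%, 0.130%, 0.0670% and 0.0364% of the wild-type counts. In the wild type, miR-290-295 held 55.4% ± 5.24, miR-7a and miR-7b 13.9% ± 0.913 and the miR-183 cluster 6.77% ± 0.314, against 0.377% ± 0.247, 0.0976% ± 0.0214 and 0.243% ± 0.0607 in KO. For each of these classes the 3 KO libraries lay wholly on one side of the 3 wild-type libraries. The miR-290-295 share and that of the wild-type top 10 count some reads 2 times. Such reads fall on hairpins annotated on opposite strands of one place. With each read counted once, the miR-290-295 share of the wild type would be lower than given.

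**Figure D2:**
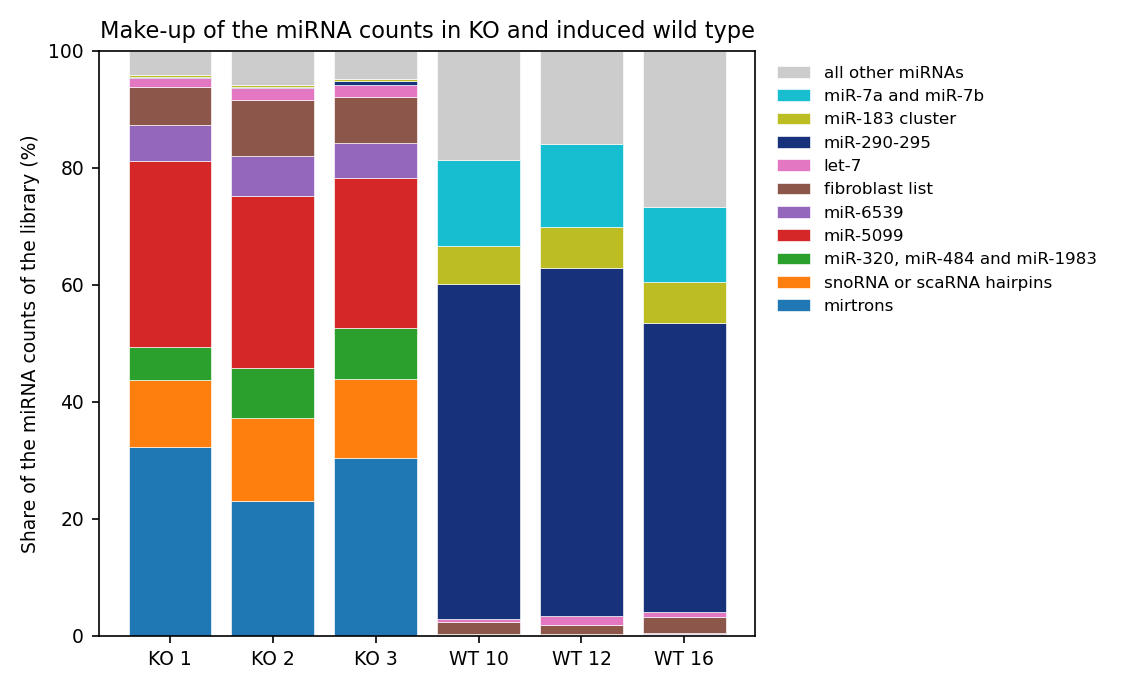
Share of the miRNA counts (%, vertical axis) held by 11 classes in each of the 6 libraries. The KO bars are made mainly of mirtrons, snoRNA or scaRNA hairpins and miR-5099, and the wild-type bars mainly of miR-290-295, which held 55.4% there on average.

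The canonical miRNAs known for embryonic stem cells were close to absent in KO. Of the miR-290-295 cluster all 18 listed miRNAs were tested and 18 were lower, and the cluster's summed counts, 2005 over the KO libraries, were 0.0235% of the 1943385, 3648757 and 2939887 in the wild type. The median log2 change of the cluster was -8.22, beside -3.54 over all tested miRNAs, both without bounds. With members at 0 set to their bound the cluster's median was -8.05. miR-293-5p (Mir293, chr7:3220343-3220422) had 39, 17 and 52 counts in KO and 423627, 839069 and 688740 in the wild type, a log2 change of -10.98 ± 0.62 (SE, adjusted p = 5.54e-56). Every KO library lay far below every wild-type library. miR-292a-5p had 190, 148 and 476 against 659602, 1189962 and 860070 counts (-8.52 ± 0.58). Its counts were nearly the same as those of miR-292b-3p, annotated on the opposite strand of the same place, with 659583, 1189904 and 859972 in the wild type, so the cluster's sum holds these reads 2 times. Other pairs in the cluster also had nearly equal counts, among them miR-290b-3p with miR-290a-5p. Of the AAGUGCU members, miR-295-3p had 31, 15 and 26 counts against 29993, 79284 and 99207, miR-294-3p 5, 11 and 14 against 9273, 24492 and 35509, and miR-291a-3p 2, 3 and 14 against 9144, 19649 and 28284. The smallest change in the cluster was that of miR-295-5p, with 16, 8 and 14 counts against 679, 1256 and 2038 (-3.43 ± 0.48), whose adjusted p was 0.11 after thinning. KO replicate 3 held the most miR-290-295 counts of the KO libraries, at 0.661% of its total, with 0.248% and 0.220% in the others. For the miR-302-367 cluster, also typical of early embryonic cells, 8 of 9 tested miRNAs were lower and its summed counts were 0, 4 and 6 against 4786, 12478 and 13942. miR-302b-3p was at 0 in KO and had 1755, 5184 and 6168 counts in the wild type, at least 72.9-fold lower. After thinning, 15 members of miR-290-295 and 5 of miR-302-367 were still called lower, and 0 of either were called higher. As background, 405 of the 478 miRNAs at the filter level in a wild-type library were lower, and 230 of 729 after thinning.

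The proliferation-linked clusters with related seeds showed the same direction. In miR-17-92, 13 of 14 tested miRNAs were lower and KO counts came to 0.0230% of the wild-type counts. miR-20a-5p had 6, 4 and 3 counts in KO and 12564, 36379 and 66407 in the wild type (-9.74 ± 0.59), and miR-92a-3p 15, 6 and 28 against 25346, 49915 and 86330 (-8.35 ± 0.55). The member that did not pass, miR-19b-1-5p, had 0, 0 and 2 counts against 6, 26 and 51. In the X-linked miR-106a-363 cluster 8 of 8 were lower, with 8 counts in all of KO against 140589 in the wild type, the lowest ratio of any list (0.00569%). miR-363-3p (Mir363, chrX:52741693-52741767) was at 0 in every KO library and had 7488, 15649 and 21917 counts in the wild type, at least 254-fold lower with TMM scaling. miR-20b-5p was also at 0 in KO, with 5036, 13231 and 23928 counts in the wild type, and miR-106a-5p was at least 141-fold and miR-18b-5p at least 81.5-fold lower. In miR-106b-25, within Mcm7, 6 of 6 were lower. miR-25-3p kept 44, 49 and 49 counts against 50020, 80391 and 116110 (-7.50 ± 0.52). After thinning, 10 members of miR-17-92, 6 of miR-106a-363 and 6 of miR-106b-25 were still called lower, beside 230 of 729 miRNAs. Before thinning, 405 of the 478 at the filter level in a wild-type library were lower.

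By seed, the AAGUGCU group of 5 miRNAs went from 2.17% ± 0.696 of the wild-type counts to 0.0225% ± 0.00815 of the KO counts (SD, n = 3). The AAAGUGC group of 7 miRNAs, which differs from it by a shift of 1 base, went from 1.72% ± 0.926 to 0.00911% ± 0.00158. The CUCAAAC group, held by the 5p arms of miR-290a, miR-292a and miR-293, went from 30.5% ± 3.72 to 0.175% ± 0.121. For AUUGCAC, shared by miR-25, miR-32, miR-92, miR-363 and miR-367, the shares were 2.94% ± 0.823 and 0.0363% ± 0.00918. In each of these 4 seed groups the canonical members fell together as a share of the pool, and the members share libraries, so they are not replicates of one another.

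Abundant miRNAs outside the stem cell clusters were lower as well. miR-7a-5p, which is best known from neurons and endocrine cells and has 2 loci in the RefSeq table, was among the most abundant in the wild type, with 499664, 864900 and 766817 counts, and had 146, 190 and 172 in KO (-8.85 ± 0.58, adjusted p = 2.93e-45). miR-182-5p (Mir182, chr6:30165918-30165992) had 137621, 267630 and 239179 counts in the wild type and at most 313 in KO (-6.54 ± 0.52). For miR-183-5p of the same cluster the values were 76995, 153983 and 158620 against 161, 170 and 203 (-6.28 ± 0.51), and all 6 tested members of the cluster of miR-183, miR-96 and miR-182 were lower. miR-148a-3p, an abundant miRNA of many tissues, had 107944, 103555 and 131860 in the wild type and between 123 and 167 in KO (-6.46 ± 0.51). KO and wild type did not overlap for any of these 4. All tested members of miR-148-152 (6), miR-15-16 (15), miR-200 (7), whose members restrain the mesenchymal state, and miR-30 (12) were lower, with KO counts at 0.198%, 1.53%, 0.0306% and 0.731% of the wild-type counts. Such counts stand beside 405 lower of the 478 miRNAs at the filter level in a wild-type library. After thinning, 4, 5, 5 and 8 of them were still called lower, in the order of the families above, and 1 of miR-15-16 was called higher. The thinned background was 230 lower of 729. With total counts 9 of the 15 in miR-15-16 were lower, beside 319 of 730 over all tested miRNAs. The range within a family was wide: miR-30c-5p had 4, 4 and 10 counts against 9854, 17792 and 35124 (-8.41 ± 0.55), and miR-30a-5p 370, 438 and 375 against 10524, 15410 and 24463 (-2.15 ± 0.40). For miR-30a-5p the fitted change after thinning was 0.52, so its direction depends on the depth treatment.

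The 2 large imprinted or tandem clusters were nearly emptied. In the Dlk1-Dio3 region, a maternally expressed miRNA cluster on chromosome 12, 86 of 110 listed miRNAs were tested, 83 were lower and 3 higher, and KO counts came to 0.115% of the wild-type counts. After thinning to KO depth 61 were lower and 4 higher. Background values were 405 lower of the 478 at the filter level in a wild-type library, and 230 of 729 after thinning. Of the tested members 56 were at 0 in all KO libraries. The median log2 change was -8.63, beside -3.54 over all tested miRNAs. With those members at their bound the median was -3.25. This value cannot be set against -3.54, which was taken without bounds. miR-379-5p had 1, 0 and 2 counts in KO and 19188, 19937 and 34202 in the wild type (-11.37 ± 0.66). miR-341-3p was at 0 against 7679, 9004 and 19760 counts, at least 207-fold lower, and miR-134-5p at 0 against 4325, 3982 and 8975, at least 102-fold lower. Of the lower members the one with the least change came from miR-127, which lies opposite a coding exon of Rtl1. miR-127-5p kept 77, 93 and 74 counts against 1223, 1520 and 3442 (-1.35 ± 0.39), while miR-127-3p had 29, 31 and 21 against 2630, 3251 and 4860 (-3.86 ± 0.44). The highest fitted member, miR-3070-5p, had 4, 0 and 4 counts in KO and 0 in the wild type, so it rests on 8 counts. In the Sfmbt2 intron cluster 26 of 27 tested miRNAs were lower, and 15 after thinning, for example miR-669c-5p with 15, 6 and 14 counts against 3170, 4166 and 6763 (-5.45 ± 0.48). The exception was miR-669h-5p, with 20, 18 and 10 counts in KO and 9, 20 and 24 in the wild type (3.07 ± 0.58), whose deposited counts overlapped.

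**Figure D3:**
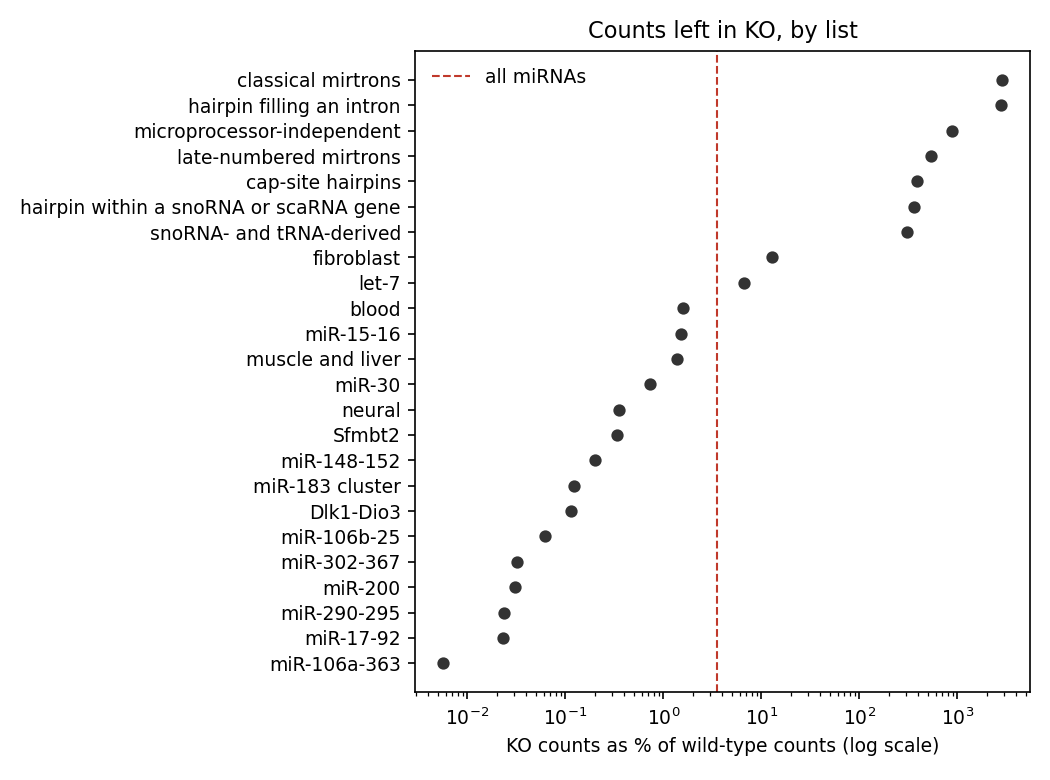
Summed KO counts as a percentage of summed induced wild-type counts (horizontal axis, log scale) for each list, with the value over all miRNAs (3.52%) as a dashed line. Mirtron, cap-site, snoRNA and tRNA lists lie above 100%, the fibroblast and let-7 lists lie a little to the right of the line, and the other lists lie to its left.

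The miRNAs listed as independent of the Microprocessor behaved in the opposite way. Of 15 listed, 14 were tested and 13 were higher in KO, 10 of which had reached the filter level in a wild-type library. Over all tested miRNAs 30.0% were higher, and of the 478 at the filter level in a wild-type library 44 were. The list made up 40.6%, 35.1% and 43.2% of the KO counts and 0.151%, 0.124% and 0.203% of the wild-type counts. In deposited counts, without any scaling, the list summed to 84777, 58475 and 73130 in KO and to 5118, 7581 and 12060 in the wild type, so that the smaller KO libraries held 874% of the wild-type counts. For 9 of the 14 every KO library had more counts than every wild-type library, beside 15.8% of all tested miRNAs. That count is a description, since only 10 of the 14 had reached the filter level in a wild-type library. The median log2 change was 5.07, and it lay above 0 under every scaling tried except that to the list itself (-1.31). In KO miR-1981-5p was the largest part of the list's sum, but not in the wild type. In the other libraries of the series the list held 1.27% of the counts of the untreated wild-type library, 34.6% of the untreated E518K library and 1.64% ± 0.439 of the 3 induced E518K libraries (SD).

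Among the mirtrons, miR-1981-5p had 57659, 28693 and 42352 counts in KO and 859, 1073 and 1279 in the wild type, a log2 change of 8.43 ± 0.56 (SE, adjusted p = 2.17e-44). It held 23.3% ± 5.41 of all KO counts, and its other arm, miR-1981-3p, had 1462, 1435 and 1653 counts against 47, 107 and 104 (7.38 ± 0.49). miR-877-3p had 5529, 5210 and 5029 counts against 412, 563 and 506 (6.52 ± 0.83), and miR-877-5p 947, 1441 and 1097 against 91, 113 and 150 (6.51 ± 0.48). No library of KO overlapped the wild type for any of these arms, in deposited counts or scaled. miR-702, in Plod3, was less abundant, with 10, 10 and 11 counts of miR-702-5p against 2, 2 and 2 (5.40 ± 0.78). miR-1224-5p, whose hairpin fills an intron of Vwa5b2, had 2, 4 and 4 counts against 4, 10 and 7 (2.11 ± 0.96, adjusted p = 0.0321), and its adjusted p rose above 0.05 when any single library was left out.

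Of the cap-site hairpins 2 of 3 tested miRNAs were higher, and so was the tRNA-derived miR-1983. With scaling to the Microprocessor-independent list, which holds them, 0 of the 3 cap-site miRNAs were higher and 2 lower. miR-320-3p, the standard example of a capped hairpin, had 4966, 4941 and 4922 counts in KO and 342, 757 and 904 in the wild type (6.16 ± 0.47, adjusted p = 6.06e-34). miR-484 (Mir484, chr16:14159626-14159692) had 2098, 2722 and 3229 counts against 537, 1187 and 2198 (4.45 ± 0.43). Its deposited counts overlapped between the groups, and its scaled values did not. miR-320-5p had 2, 0 and 2 counts against 2, 2 and 8 and did not pass (adjusted p = 0.274). miR-1983 had 4909, 6410 and 6571 counts against 755, 1572 and 2558 (5.23 ± 0.46).

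Hairpins lying within a snoRNA or scaRNA gene of the annotation, a class found by position and not by name, were all higher with TMM scaling where tested. Of 23 listed, 21 were tested and 21 were higher, 10 of them having reached the filter level in a wild-type library. Over all tested miRNAs 30.0% were higher, and of the 478 at the filter level in a wild-type library 44 were. The summed counts of the class were 23951, 23828 and 22720 in KO and 4767, 5294 and 9594 in the wild type, or 359%. For 17 of the 21 every KO library held more counts than every wild-type library, beside 15.8% of all tested miRNAs. Since only 10 of the 21 had reached the filter level in a wild-type library, this count may follow in part from the filter. It is given as a description. With scaling to the Microprocessor-independent list 0 of the 21 were higher and 9 lower. miR-3535, within the snoRNA gene Gm24148 in Ncl, had 9668, 8893 and 7859 counts against 1836, 1982 and 3448 (5.06 ± 0.46), and miR-1839-5p, within a scaRNA, had 7093, 7419 and 8006 against 2011, 2143 and 4215 (4.68 ± 0.45). miR-677-5p, in an intron of Atp5b, had 2205, 1890 and 1481 against 263, 365 and 581 (5.42 ± 0.45), and miR-3068-3p, in an intron of Alkbh1, had 1480, 1648 and 1730 against 108, 182 and 279 (6.38 ± 0.47). For all 4 the 2 groups were fully apart. miR-1843b-3p, within Scarna3a, had the highest fitted change of the class, with 405, 296 and 266 counts against 18, 16 and 20 (7.26 ± 0.53). The lowest was that of miR-5121, within Snord33 and an exon of Rpl13a, with 73, 55 and 106 counts against 82 to 166 (2.46 ± 0.44), whose deposited counts overlapped. Fragments of the host snoRNA and miRNAs cut from it cannot be told apart in these counts.

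The late-numbered mirtrons, taken as miR-6896 to miR-7094, form a larger group of intronic hairpins. Of those with a hairpin position, 345 of 361 (95.6%) ended at an annotated splice site, compared with 73 of 1303 other miRNAs (5.60%). All 403 listed ones together had 1563, 1478 and 1326 counts in KO and 140, 248 and 427 in the wild type. Every KO library therefore held more of them than every wild-type library, and 0.806% ± 0.0720 of the KO counts came from them against 0.00512% ± 0.00180 in the wild type. Of the 403, 87 were tested and 82 were called higher. However, 0 of the 87 had reached the filter level in a wild-type library. The count of 82 thus follows from the filter and is given as a description. With scaling to the Microprocessor-independent list 5 were higher and 8 lower. Among those at 0 in the wild type, miR-6945-3p had 46, 42 and 20 counts in KO and was at least 48.5-fold higher against the wild-type floor. For miR-7070-5p, with 30, 23 and 16 counts, the bound was 30.9-fold, and for miR-6932-3p, with 30, 18 and 18, it was 29.4-fold. Over all hairpins that end at a splice site, 99 were tested, and only 10 of them had reached the filter level in a wild-type library. Of these 10, 6 were higher and 4 lower. Those 4 were both arms of miR-382 and miR-369, in exons of the non-coding gene Mirg of the Dlk1-Dio3 region. miR-382-5p had 2, 2 and 2 counts in KO and 1397, 1753 and 3997 in the wild type.

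**Figure D4:**
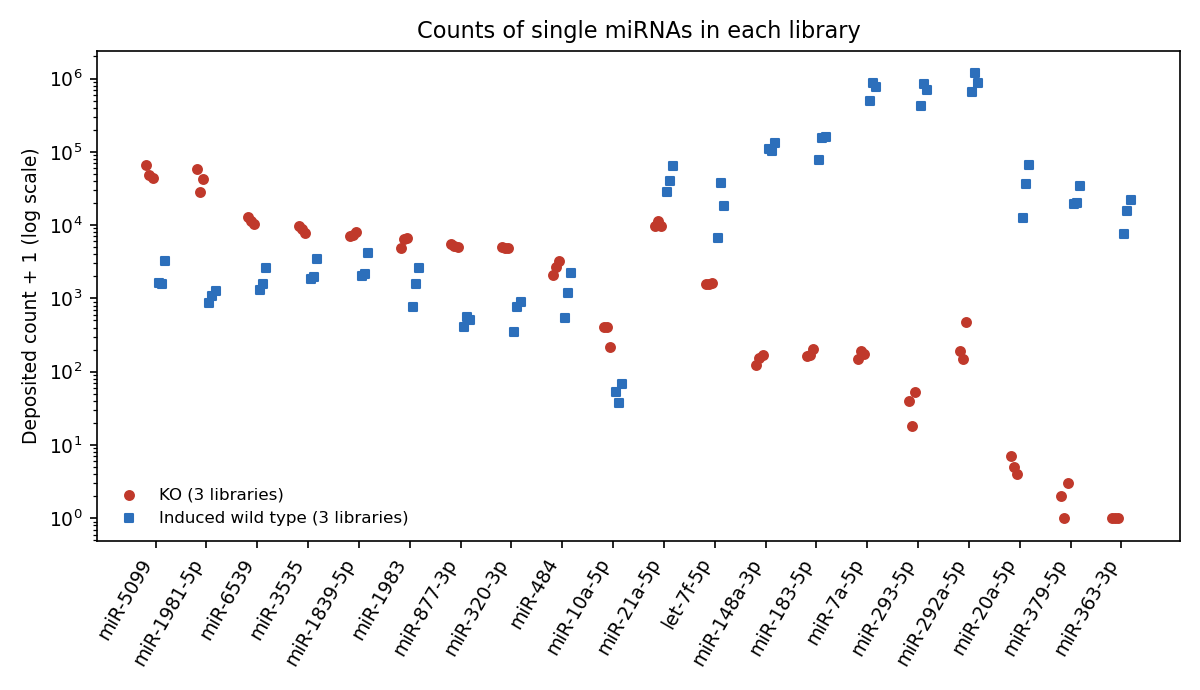
Deposited counts + 1 (vertical axis, log scale) of 20 miRNAs in the 3 KO libraries (red circles) and the 3 induced wild-type libraries (blue squares). The miRNAs from miR-5099 to miR-320-3p have more counts in every KO library than in any wild-type library, and miR-363-3p is at 0 in KO.

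The most abundant KO miRNA stood on none of the lists. miR-5099, whose hairpin Mir5099 lies at chr12:36816205-36816278 outside any annotated gene, had 66368, 49031 and 43474 counts in KO and 1620, 1561 and 3205 in the wild type (7.82 ± 0.55, adjusted p = 2.06e-40). miR-6539 had 12722, 11398 and 10320 counts against 1320, 1596 and 2631 (5.84 ± 0.48). Both had higher counts in every KO library, and how their hairpins are made was not tested. The largest bounds among miRNAs at 0 in the wild type were those of miR-6541, with 44, 48 and 45 counts in KO (at least 63.8-fold higher), and of miR-3569-5p, with 49, 44 and 36 (at least 58.9-fold).

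Another pattern was seen for let-7 and for miRNAs typical of fibroblasts, which kept a larger share of their counts in KO than the other canonical lists. The let-7 family, known for promoting differentiation, had 3240, 3473 and 3446 counts in KO and 16121, 89243 and 46283 in the wild type, or 6.70% beside 3.52% over all miRNAs. Of 23 listed, 13 were tested, 3 were higher, 7 lower and 3 did not pass. Over all tested miRNAs 30.0% were higher and 58.4% lower, so the split of the let-7 calls was close to that background. let-7f-5p had 1585, 1581 and 1631 counts in KO and 6759, 37407 and 18164 in the wild type (-0.46 ± 0.39, adjusted p = 0.261). let-7g-5p had 268, 290 and 344 against 5744, 28271 and 16143 (-2.53 ± 0.40), and let-7i-5p 984, 1167 and 966 against 1738, 11029 and 4170 (0.78 ± 0.38, adjusted p = 0.0486). The 3 KO libraries were close to each other while the wild-type libraries spread several-fold, with clone 10 lowest and clone 12 highest. The family's median log2 change was -1.33 with TMM, 0.36 when scaled to total counts and 1.48 after thinning, so it has no direction that holds across scalings. As a share of the pool, the GAGGUAG seed group held 1.89% ± 0.295 in KO and 0.901% ± 0.501 in the wild type.

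The fibroblast list held 7.98% ± 1.53 of the KO counts and 2.17% ± 0.576 of the wild-type counts (SD, n = 3), and its counts in KO came to 12.7% of those in the wild type. Of its 24 miRNAs, 22 were tested, 7 were higher, 6 lower and 9 did not pass. Over all tested miRNAs 30.0% were higher and 58.4% lower. The median log2 change of the list was 0.47. That median was 2.04 with total counts and 2.83 after thinning, -1.42 with the authors' scaling and -5.88 with scaling to the Microprocessor-independent list. In KO miR-21a-5p made up most of the list, with 9778, 11543 and 9795 counts. In the wild type it had 28079, 39442 and 64606 counts, fewer in each library than miR-27b-3p. The log2 change of miR-21a-5p was 1.18 ± 0.40 (adjusted p = 0.00397) and -0.70 with the authors' scaling. It fell to 0.65 without KO replicate 1 (adjusted p = 0.104) and to 0.33 without wild-type clone 12 (adjusted p = 0.515). miR-143-3p, abundant in mesenchymal cells, had 1784, 1822 and 1460 counts against 8350, 8802 and 12457 (0.60 ± 0.37, adjusted p = 0.122). miR-199a-5p had 490, 548 and 522 against 758, 1366 and 1668 (1.97 ± 0.39). miR-10a-5p, encoded between Hox genes, was the only member with more deposited counts in every KO library, at 406, 406 and 213 against 52, 36 and 67 (5.83 ± 0.49). miR-27b-3p went the other way, with 166 to 234 counts against 29944, 44632 and 76057 (-4.65 ± 0.45), so the members did not move together. The other cell type lists were low in both groups: neural miRNAs held 0.0375% of the KO and 0.354% of the wild-type counts, blood miRNAs 0.0118% and 0.0251%, and muscle and liver miRNAs 0.0389% and 0.0962%. Of 14 tested neural miRNAs 12 were lower and 0 higher, and of 9 blood miRNAs 9 were lower. Among all miRNAs at the filter level in a wild-type library 405 of 478 were lower. After thinning only 3 of 14 neural and 2 of 8 blood miRNAs were called lower, beside 230 of 729. Of 8 tested muscle and liver miRNAs 3 were higher and 4 lower, a split near that over all tested miRNAs. Their median log2 change of -2.51 became 0.17 after thinning. The 3 higher ones had not reached the filter level in a wild-type library. They include the muscle miRNA miR-206-3p, with 20, 30 and 17 counts against 4, 4 and 9 (5.19 ± 0.66), while the muscle miRNA miR-499-5p was at 0 against 674, 1978 and 1996. The part of other cells in these residual counts was not tested.

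**Figure D5:**
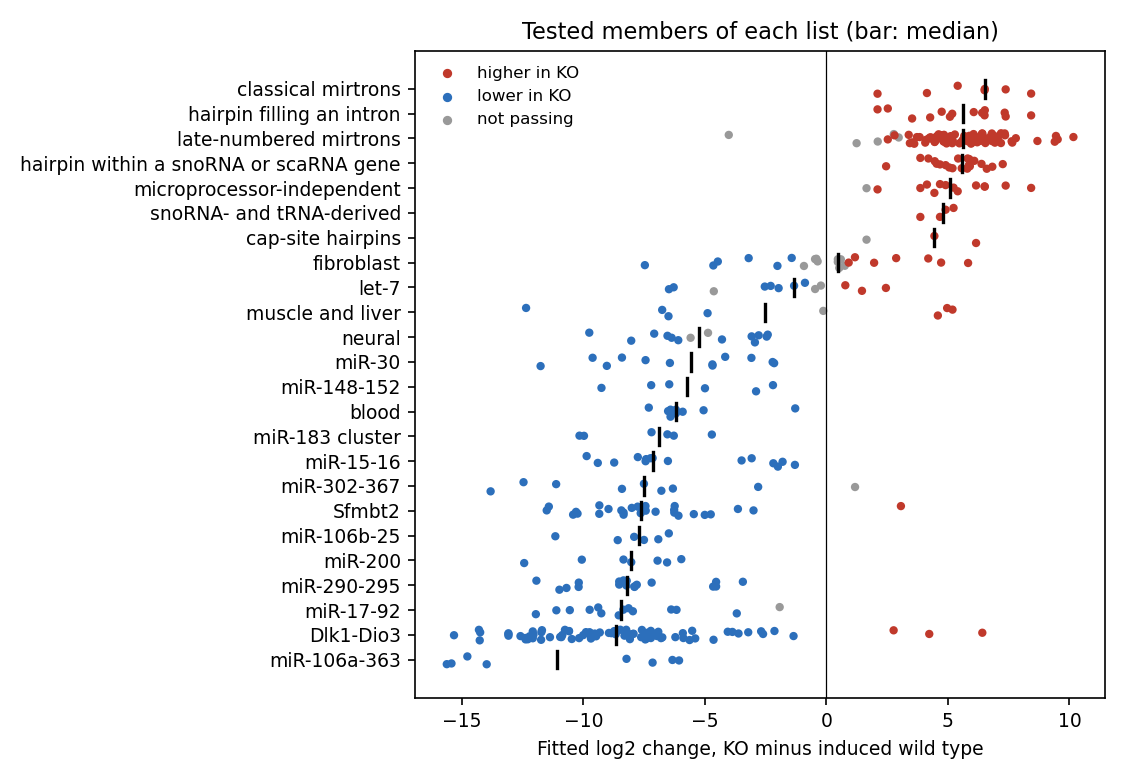
Fitted log2 change (KO minus induced wild type, horizontal axis) of the tested members of each list, coloured by call, with the median of each list as a bar. The medians of the mirtron, snoRNA and cap-site lists lie to the right of 0 and those of the canonical clusters to its left. Single members lie on the other side, as in Dlk1-Dio3 (up to 6.42), Sfmbt2 (3.07), miR-302-367 (1.18) and the late-numbered mirtrons (-4.01).

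The 2 arms of a hairpin were compared by their calls. Of 198 hairpins with both arms tested, 31 had both arms higher, 131 both lower, 0 had arms called in opposite directions and 36 had at least 1 arm that did not pass. Among the 36 were hairpins whose arms had fitted changes of opposite sign, such as miR-1247 (0.84 and -8.78) and miR-760 (1.58 and -6.87). Over both arms, miR-1247 had 8 counts in KO and 409 in the wild type, and miR-760 had 4 and 112. All KO counts of both were on the 5p arm. Their 3p arms were thus at 0 in KO, and those fitted falls depend on the prior count. Hairpins annotated on opposite strands of one place, such as miR-337 and miR-3544, hold the same reads and are both counted. The share of the 5p arm overlapped between the groups for miR-877, at 18.1% ± 3.52 in KO and 19.2% ± 3.23 in the wild type (SD, n = 3). It did not overlap for miR-1981, at 96.3% ± 1.15 and 92.7% ± 1.95, for miR-127, at 75.2% ± 2.63 in KO and 35.0% ± 5.58 in the wild type, and for miR-199a, at 58.6% ± 6.03 and 32.9% ± 5.89. For miR-1843b the 5p share was 63.3% ± 5.94 in KO and 81.2% ± 2.42 in the wild type. The exact permutation test cannot go below p = 0.1 for any of them, and these hairpins were picked after their values were seen.

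Hairpins of miRNAs that were higher in KO were shorter than those of miRNAs that were lower. Their median length was 72 bases, with an interquartile range of 64 to 85, against 83 bases with a range of 73 to 94.8 for those lower and 82 for those not passing. A position was known for 86.3%, 84.0% and 81.2% of the 3 groups. The mature sequences of those higher had a median GC content of 54.2%, compared with 47.6% for those lower and 50.0% for those not passing. A first base of U was found in 46.5%, 38.5% and 31.9%. These are descriptions across miRNAs, which are not independent, and the mirtrons are part of the first group, 82 of them late-numbered ones. Of the higher miRNAs only 44 had reached the filter level in a wild-type library, against 405 of the lower ones. The groups thus differ in how they entered the test. How far the differences in length, GC content and first base follow from the filter was not tested.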

How the data were processed

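The authors deposited small RNA data of the embryonic stem cell lines as a table of counts per mature miRNA, together with RPM values headed pRPM. STAR, bedtools and GRCm38.p6 are named in the submitters' processing notes, while their versions, the strand setting and the treatment of multiply matching reads are not stated there. All pRPM values came out as whole reads (100% within 0.01 reads) equal to the deposited counts, so the counts were tested. pRPM totals are equal within a group (85006 in each KO and 938495 in each induced wild-type library), and they served as an alternative scaling. A further deposited file of piRNA values was identical to the pRPM file and was not used.

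The 11 libraries in 5 groups were fitted with edgeR 4.0.16 (R 4.3.3) after TMM scaling and filterByExpr. This filter kept miRNAs above about 7.05 CPM in at least 1 library. In unscaled CPM the floor of 6 counts was 28.7 to 36.0 in KO and 0.979 to 1.77 in the induced wild type. The filter level thus lay below the floor in KO and above it in the wild type. Among miRNAs called higher, 27 had fewer than 10 counts summed over the KO libraries. The quasi-likelihood test contrasted KO with induced wild type, with Benjamini-Hochberg adjustment over 730 miRNAs and a threshold of 0.05. The script was tested on simulated data. Replicates of a group differed by more than sampling noise (chi-square per degree of freedom 24.3 to 557, Pearson r of log2 values across miRNAs 0.955 to 0.982). In 24 sets, 48 miRNAs had counts within 2% of each other and may share reads. Shares used two-sided exact permutation tests (scipy 1.17.1). KO titles number libraries 1 to 3 and do not say that these are separate cultures, so p-values then measure the spread between these samples only. Members and lists were chosen with earlier results of these data known. Named miRNAs were the 8 most abundant of each group, the 10 largest folds in each direction under set limits, the 8 largest bounds at 0 in KO, every Microprocessor-independent miRNA and the most abundant and extreme members of each list. Others are named to fill out a family and were chosen after their values were seen. Hairpin positions, introns and small RNA genes come from RefSeq and GENCODE on GRCm38.p6.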

Additional observations from a re-analysis of the deposited data

How the results depend on the processing

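Depth limits the KO side most: its libraries held at most 208846 counts, and 228 tested miRNAs were at 0 there. For 136 of them a bound exists, and the others cannot be told from the floor. Even so, 216 of the 228 were called lower. Among all 426 lower miRNAs, 107 had at least 10 counts summed over the KO libraries. No paired analysis was possible because the KO titles number libraries 1 to 3 while the wild-type titles carry clones 10, 12 and 16, so no number is shared. In edgeR's test 426 miRNAs were lower and 34.0% of the calls were higher. Lower miRNAs numbered 391 with DESeq2 1.42.0, 421 with its size factors, 431 without the filter, 428 with the 2 groups alone, 364 with miRNAs of equal counts merged, 319 with total counts and 468 with the authors' scaling, where 167 were higher. After thinning to 166676 counts there were 261 higher and 230 lower, so 53.2% of the calls were higher, and fewer counts were left in the wild type. Scaling to the Microprocessor-independent list gave 12 higher and 560 lower. With 1 library left out, 405 to 442 were lower and 30.8% to 34.8% of the calls were higher. The shares of each list kept their direction with equal-count miRNAs merged and with any 1 library left out, the totals with them merged, and the numbers detected at 1 or 20 counts and after thinning. Medians of the let-7, fibroblast, muscle and liver and Microprocessor-independent lists turned with the scaling or thinning, as given above. With scaling to the Microprocessor-independent list other medians above 0 with TMM also turned. They were -1.94 for cap-site hairpins, -1.58 for snoRNA- and tRNA-derived miRNAs and -0.76 for hairpins in snoRNA or scaRNA genes. Late-numbered mirtrons were at -0.37, hairpins filling an intron at -0.61 and those ending at a splice site at -0.71.

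Among named miRNAs, directions turned under these settings, and apart from the construction of each setting the cause was not tested. With scaling to the Microprocessor-independent list the log2 change was -0.50 for miR-6539, -5.17 for miR-21a-5p, -1.28 for miR-3535, -1.68 for miR-1839-5p, -2.49 for miR-1839-3p, -1.14 for miR-1983, -4.12 for miR-1224-5p, -2.14 for miR-702-3p, -0.78 for miR-702-5p, -1.94 for miR-484, -1.48 for miR-1291, -0.20 for miR-320-3p, -4.43 for miR-320-5p, -1.98 for miR-6992-5p, -4.72 for miR-367-5p, -3.88 for let-7b-5p, -3.23 for miR-669h-5p, -0.46 for miR-10a-5p, -1.07 for miR-206-3p and -3.93 for miR-5121. With the authors' scaling it was -0.70 for miR-21a-5p, -0.20 for miR-320-5p and -0.45 for miR-367-5p, which with 1 library left out ranged from -3.44 without KO replicate 3 to 1.77. After thinning it was 0.021 for miR-1306-3p, 0.38 for miR-19b-1-5p, 2.19 for let-7f-5p, 0.89 for miR-16-1-3p, 1.05 for miR-322-3p, 0.52 for miR-30a-5p, 0.74 for miR-152-5p, 0.84 for miR-219a-5p and 0.96 for miR-142a-3p. With total counts it was 1.26 for let-7f-5p, 0.31 for miR-322-3p and 0.22 for miR-142a-3p, and with merged miRNAs 0.20 for let-7f-5p.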

Other observations

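Several further miRNAs outside the lists had more deposited counts in every KO library than in any wild-type library, and they were picked after their values were seen. The miR-344 family lies in one stretch of chromosome 7. miR-344-3p had 614, 856 and 736 counts in KO and 44, 108 and 212 in the wild type, a log2 change of 6.01 ± 0.47 (SE). miR-344d-3p had 84, 54 and 51 counts against 0, 0 and 6 (8.11 ± 0.71), and miR-344b-3p 39, 58 and 44 against 12, 4 and 16 (5.33 ± 0.59). miR-344f-3p had 36, 40 and 27 counts and was at 0 in the wild type, at least 47.5-fold higher against the floor of 6 counts per library.

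Of the miR-99 and miR-100 group, which shares the seed ACCCGUA, miR-100-5p had 671, 714 and 520 counts in KO and 213, 390 and 345 in the wild type (4.17 ± 0.43). miR-99a-5p had 458 counts in all of KO against 11, 27 and 56 (5.64 ± 0.51). miR-99b-5p, with the same seed, had 901, 845 and 698 against 8358, 11055 and 14620 (-0.63 ± 0.37, adjusted p = 0.103 in edgeR's quasi-likelihood test). The 3 miRNAs thus kept different numbers of counts in KO, and the source of these counts was not tested.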
